A study of Mus musculus with 8 samples.

Results

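Eph receptors and ephrins, Slits and Robos, and the teneurins are cell surface and secreted guidance proteins, and their genes were followed here in sorted haematopoietic stem cells (HSCs), the rare cells of the marrow that give rise to every blood lineage. The members are every gene in the deposited tables that has an exon model and carries the symbol of an Eph receptor, an ephrin, Slit1 to Slit3, Robo1 to Robo3 or a teneurin, so no measured value entered their choice. There were 31 of them among 22050 genes with an exon model: 14 Eph receptors, 8 ephrins, 3 Slits, 3 Robos and 3 teneurins. The teneurin Tenm1 is listed only under 2 numbered names, which the rule does not take, and neither had an exon read in any library.

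Bone marrow of the inbred strain C57BL/6 was the source of both groups, and the labels name no mutation or treatment for either. The sort kept lineage-negative cells that carry CD150 and EPCR but not CD48, and each library was made from 100 cells. The neonatal group (postnatal day 5, P5) and the 4-week group had 4 libraries each. Whether the libraries within a group are from different mice is not stated, so the p-values cover the spread among these libraries, which may in part be technical. Cells cultured for 1 day, which the series text mentions, are not analysed here.

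Eph receptors are the largest family of receptor tyrosine kinases, and their ligands, the ephrins, stay attached to the membrane of the neighbouring cell. A-class ephrins hold to the membrane by a lipid anchor and B-class ephrins cross it, and binding can signal into both cells. Slits are secreted proteins that bind Robo receptors, and teneurins are large transmembrane proteins that bind latrophilins on other cells. These families are best known from axon guidance, and in blood vessels ephrin-B2 and EphB4 mark arteries and veins. Robo4, a related receptor of endothelium and HSCs, is not among the members and is given with the partner genes.

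The libraries held 5775130 to 7470777 exon reads each. Y-linked reads numbered 1532 to 2293 in 6 libraries, and 2 and 0 in P5 replicates 1 and 3, so the P5 libraries came from animals of both sexes and were not all repeats of 1 animal. A list of 12 HSC markers summed to 5074 to 5663 CPM (the read count scaled to the effective library size) at P5 and to 4602 to 5193 at 4 weeks, with 3 of 11 tested higher and 1 lower, no marker at 0 and Hlf, a transcription factor of HSCs, the most abundant at 1404 and 1252 CPM. Of 12 endothelial markers, 11 were tested and 4 were higher at P5; their sum ranged from 1074 to 1353 CPM at P5 and from 980.3 to 1161 at 4 weeks, none was at 0 in every library, and Tie1, an endothelial receptor also made by HSCs, led at 323 and 369 CPM. Stromal markers summed to 14.7 to 32.8 CPM at P5 and 13.1 to 89.3 at 4 weeks, with Lum at 0 and 1 of 4 tested lower. The most abundant was Col1a2 at P5, at 14.5 and 7.87 CPM, and Cxcl12 at 4 weeks, at 0.034 and 13.02 CPM. The 89.3 CPM was replicate 4 at 4 weeks, which held 364 of the 374 Cxcl12 reads of that age. It also held 41 of 50 Lepr, 30 of 39 Pdgfra, 17 of 17 Col3a1 and 15 of 15 Dcn reads, and 45 of 46 reads of the osteoblast marker Ibsp. Col1a2 had 87 of 205 reads there, the most of any 4-week library. Pdgfrb (78 of 275), Col1a1 (4 of 14) and Acta2 (9 of 48) did not gather there. These genes other than Cxcl12 and Col1a2 were named after their values were seen. For the stromal list, the other 4-week libraries summed to 13.1 to 29.95 CPM. Neural and Schwann markers summed to 14.1 to 22.7 and 17.2 to 21.9 CPM, with Cdh19 at 0; edgeR called 0 of the 3 tested, and 0 at an unadjusted p under 0.05.

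The other lists of cells that a marrow sort could hold were as follows. Osteoblast markers summed to 127 to 160.0 CPM at P5 and 204 to 259 at 4 weeks, led by Runx2 at 143 and 239 CPM, with 1 of 2 tested lower. Erythroid markers summed to 584 to 922 CPM at P5 and 94.6 to 138 at 4 weeks, led by the globin gene Hbb-bt at 710.0 and 96.8 CPM, with 1 of 3 tested higher. Megakaryocyte markers ran the other way, from 66.4 to 88.4 CPM at P5 and from 147 to 229 at 4 weeks, with 1 of 5 tested higher and 2 lower; Gp9, a platelet glycoprotein, was the most abundant at P5, at 27.8 and 11.1 CPM, and the integrin chain Itgb3 at 4 weeks, at 14.0 and 109.6 CPM. B cell markers summed to 34.1 to 51.7 and 20.9 to 26.1 CPM, with Cd79b at 39.3 and 21.5 CPM, higher as the 1 tested, and Pax5 at 0. T and NK cell markers summed to 19.7 to 31.7 and 15.96 to 26.5 CPM, with Cd4 the most abundant at P5, at 15.6 and 6.09 CPM, Nkg7 at 4 weeks, at 2.08 and 9.02 CPM, Cd3e and Cd3g at 0, and 1 of 3 tested higher and 1 lower. Neutrophil and monocyte markers summed to 238 to 475 and 187 to 221 CPM, with Lyz2 at 172 and 158 CPM, Ly6g and Ctsg at 0, and 3 of 6 tested higher and 1 lower. The 475 CPM was P5 replicate 2, in which Csf1r, named after its values were seen, had 158 CPM against 3.53 to 7.92 in the other P5 libraries; these summed to 238 to 257 CPM. In such bulk libraries, fewer cells of a type and less RNA per cell cannot be told apart. Beside the calls in these marker lists, edgeR called 7.99% of all tested genes higher at P5 and 8.55% lower, at an adjusted p under 0.05.

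All 31 guidance genes were below the median tested gene in reads per kb of exon, and most of those that differed with age were higher in the neonate. Slit2, a secreted Robo ligand, Tenm4, a teneurin, Ephb2, a B-class Eph receptor, and Epha1, an A-class receptor, were higher at P5, by 8.23-fold, 7.03-fold, 3.36-fold and 1.83-fold, and Efnb1, the gene of ephrin-B1, was 1.60-fold lower. Of the 31 members, 14 had more than 100 exon reads over all libraries, and 15 passed the filter on low counts and were tested. By edgeR's quasi-likelihood test at an adjusted p under 0.05, 4 of the 15 were higher at P5, against 7.99% of all 12235 tested genes, 1 was lower, against 8.55%, and 10 were not called. The 2 ages did not overlap in 6 of the 15, against 21.2% of all tested genes. The median log2 fold change was 0.26 over the tested members and -0.0042 over all tested genes. Here and below, a fold change is P5 over 4 weeks.

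**Figure D1:**
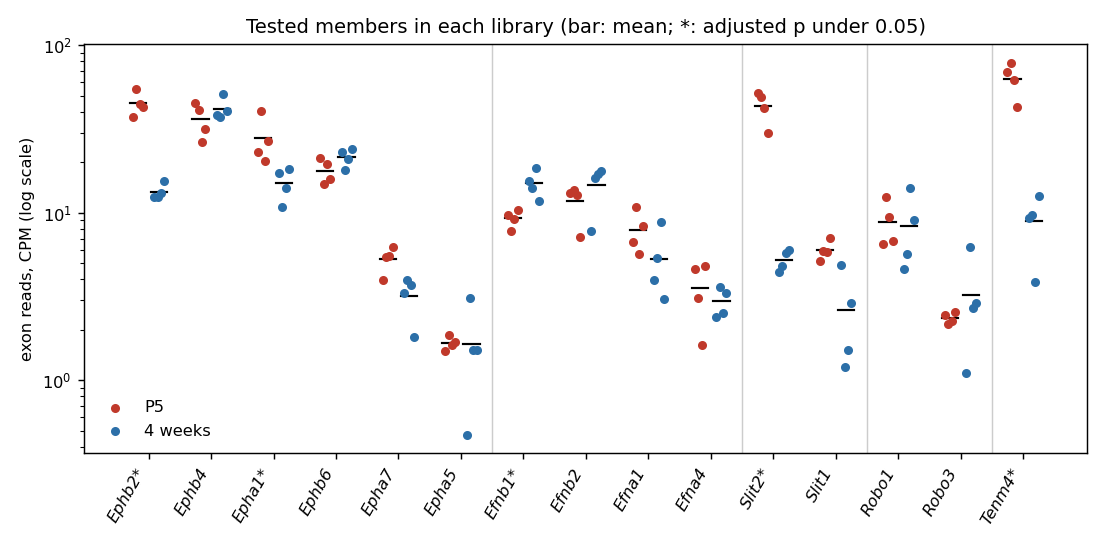
Exon reads in CPM (log scale) of the 15 tested members, one point per library, with P5 in red, 4 weeks in blue and the mean of 4 libraries as a bar; families are separated by grey lines in the order Eph receptors, ephrins, Slits, Robos, teneurins. Slit2, Tenm4 and Ephb2 show the wide gaps between ages, with P5 libraries at 29.8 CPM or more and 4-week libraries at 15.4 CPM or less.

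Because Slit2, Tenm4 and Ephb2 moved together, the 250 bases upstream of their start sites are shown, with those of Epha1, read from RefSeq on GRCm38.p6, the assembly of mm10. Each runs 5′ to 3′ on the gene's own strand. Capitals mark a GC box (GGGCGG) or an ETS core (CCGGAA), each on either strand; no match to the GATA motif AGATAA or the E-box CACGTG was found in these 4 windows, and the motifs searched do not overlap each other.
Slit2: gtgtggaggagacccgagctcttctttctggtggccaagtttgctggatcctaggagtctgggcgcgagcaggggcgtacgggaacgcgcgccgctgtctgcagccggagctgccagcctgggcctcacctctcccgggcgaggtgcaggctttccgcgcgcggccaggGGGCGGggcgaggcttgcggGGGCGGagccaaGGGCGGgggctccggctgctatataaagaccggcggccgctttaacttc
Tenm4: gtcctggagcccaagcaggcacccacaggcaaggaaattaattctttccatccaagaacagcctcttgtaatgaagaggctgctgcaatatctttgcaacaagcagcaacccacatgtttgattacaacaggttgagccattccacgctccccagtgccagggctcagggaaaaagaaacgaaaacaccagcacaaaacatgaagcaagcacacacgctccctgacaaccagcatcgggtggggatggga
Ephb2: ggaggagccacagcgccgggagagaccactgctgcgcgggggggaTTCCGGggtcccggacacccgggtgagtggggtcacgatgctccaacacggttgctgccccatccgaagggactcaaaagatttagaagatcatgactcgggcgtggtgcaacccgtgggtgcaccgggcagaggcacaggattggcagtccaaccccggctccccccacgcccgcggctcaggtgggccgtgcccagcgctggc
Epha1: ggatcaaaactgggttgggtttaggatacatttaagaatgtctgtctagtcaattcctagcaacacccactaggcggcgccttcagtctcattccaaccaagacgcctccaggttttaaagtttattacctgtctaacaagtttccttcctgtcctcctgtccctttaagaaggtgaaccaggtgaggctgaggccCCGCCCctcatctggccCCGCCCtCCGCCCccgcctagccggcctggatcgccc
The Slit2 window is chr5:47982905-47983154 on the plus strand, has 69.6% G and C, and holds 3 GC boxes; its start site lies 1864 bases inside the RefSeq gene span. The Tenm4 window, chr7:96170994-96171243 on the plus strand, is 1 of 2 listed for the gene, and has 50.8% G and C and none of the motifs. The Ephb2 window, chr4:136836013-136836262 on the minus strand, has 68.4% G and C and 1 ETS core, and the Epha1 window, chr6:42373269-42373518 on the minus strand, has 54.4% G and C and 3 GC boxes. Their start sites lie 314 and 46 bases inside the RefSeq gene spans. The whole Ephb2 window, like that of Slit2, is thus within its gene span. Over 32841 promoter windows of the same length, 32.7% held a GC box, 12.03% the ETS core, 9.99% the GATA motif and 6.02% the E-box, and the median G and C content was 52.4%. The 4 genes thus shared none of the searched motifs across all of their windows. The RefSeq table had a window for 29 of the 31 members.

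Slit2 had the largest fold change of the tested members. The gene lies at chr5:47981291-48307735. Its level at P5 was 52.1, 49.3, 42.2 and 29.8 CPM in replicates 1 to 4, and at 4 weeks 4.42, 4.83, 5.72 and 5.96 CPM. Every P5 library was above every 4-week library, and the lowest of the P5 group was replicate 4. The means were 43.3 ± 9.96 and 5.23 ± 0.726 CPM (SD, n = 4), from 1171 and 133 exon reads, with a log2 fold change of 3.04 ± 0.20 (SE) and an edgeR adjusted p of 5.74e-07. Per kb of exon, Slit2 made up 84.0% of the summed Slit level at P5 and 46.9% at 4 weeks.

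Slit1, another secreted Robo ligand, stood at 5.18, 5.91, 5.82 and 7.05 CPM at P5 and 4.90, 1.21, 1.51 and 2.91 CPM at 4 weeks. The ages did not overlap, although replicate 1 at 4 weeks came close to the P5 libraries. The log2 fold change was 1.17 ± 0.41 (SE) and the edgeR adjusted p 0.0693, so it was not called. Without that library it was 1.64 with an edgeR adjusted p of 0.0203. Reads across exon-exon junctions were 2.61% of its exon reads, against a median of 18.9% over tested genes. Slit3 was not tested, with 25 reads at P5 and 45 at 4 weeks.

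Neither of the 2 tested Robo receptors, through which Slits signal, passed the test. Robo1 had 6.54, 12.4, 9.37 and 6.77 CPM at P5 and 4.58, 5.69, 14.0 and 9.00 CPM at 4 weeks. The ages overlapped widely, and the log2 fold change was 0.075 ± 0.34 (SE; edgeR adjusted p 0.915). Robo3, known as a modulator of Slit signalling at the midline of the nervous system, had 2.45, 2.18, 2.26 and 2.54 CPM at P5 and 1.11, 6.20, 2.69 and 2.91 CPM at 4 weeks. Its P5 libraries lay close together inside the wider 4-week range, and the log2 fold change was -0.44 ± 0.47 (SE; edgeR adjusted p 0.577). Both directions turned when single 4-week libraries were left out, to -0.13 for Robo1 without replicate 1, to -0.055 without replicate 2, and to 0.086 for Robo3 without replicate 2; for Robo1 it was -0.14 without P5 replicate 2. Robo2 had 9 and 7 exon reads and was not tested. The summed Robo level was 1.24 ± 0.228 CPM per kb in the neonate and 1.33 ± 0.502 CPM per kb at 4 weeks (SD, n = 4).

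Tenm4, the teneurin with nearly all the teneurin reads, lies at chr7:96171244-96911093. It stood at 68.7, 78.6, 62.1 and 42.6 CPM in the P5 libraries and at 9.32, 9.65, 3.87 and 12.6 CPM in the 4-week libraries. The groups did not overlap, and replicate 3 was the lowest at 4 weeks. The means were 63.0 ± 15.2 and 8.86 ± 3.64 CPM (SD, n = 4), from 1696 and 229 reads, with a log2 fold change of 2.81 ± 0.27 (SE) and an edgeR adjusted p of 1.23e-05. Tenm4 held 97.5% of the summed teneurin level per kb at P5 and 85.9% at 4 weeks. In the GENCODE annotation, 988 of its exon bases (4.70%) also belong to a noncoding gene on the opposite strand, C230038L03Rik, and these libraries do not mark strand. Tenm3 had 39 and 32 exon reads and Tenm2 2 and 0, and neither was tested.

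Ephb2 was the Eph receptor with the clearest age difference. The gene lies at chr4:136647536-136836326, and its protein binds B-class ephrins. Its values were 37.4, 54.7, 44.8 and 42.6 CPM at P5 and 12.3, 12.4, 13.1 and 15.4 CPM at 4 weeks. All P5 libraries were above all 4-week libraries, which lay close together. The means were 44.9 ± 7.27 and 13.3 ± 1.42 CPM (SD, n = 4), from 1205 and 339 reads, with a log2 fold change of 1.75 ± 0.15 (SE) and an edgeR adjusted p of 5.23e-06. Ephb2 made up 15.2% of the summed Eph receptor level per kb at P5 and 5.58% at 4 weeks.

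Epha1, a receptor of A-class ephrins, lies at chr6:42358487-42373314. It had 23.2, 40.6, 20.4 and 26.9 CPM at P5 and 17.2, 10.9, 14.0 and 18.3 CPM at 4 weeks. The ages did not overlap, but P5 replicate 3 and replicate 4 at 4 weeks were near each other, and P5 replicate 2 was the highest library. The log2 fold change was 0.87 ± 0.23 (SE) with an edgeR adjusted p of 0.0171. With the replicate number as a block, the log2 fold change was 0.84 and the edgeR adjusted p 0.0654, so the call was lost. Of its exon bases in GENCODE, 236 (6.01%) are shared with Zyx, the gene of the adhesion protein zyxin, on the opposite strand. Zyx was itself higher at P5, at 349 ± 23.3 against 236 ± 27.2 CPM (SD, n = 4; log2 fold change 0.57, edgeR adjusted p 0.000794), and its part in the Epha1 value was not tested. Reads across exon-exon junctions numbered 24, 31, 8 and 21 at P5 and 29, 4, 15 and 11 at 4 weeks for Epha1, overlapping between ages, with a log2 fold change of 0.41 (edgeR adjusted p 0.648).

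The remaining abundant Eph receptors did not pass the test. Ephb4, the receptor of ephrin-B2 in veins, had 45.3, 40.9, 26.3 and 31.7 CPM at P5 and 38.1, 37.1, 50.8 and 40.2 CPM at 4 weeks. The ages overlapped, and the log2 fold change was -0.20 ± 0.17 (SE; edgeR adjusted p 0.467). Ephb6, a member whose kinase domain is inactive, had 21.1, 14.8, 19.6 and 15.9 CPM at P5 and 23.1, 18.1, 21.0 and 23.8 CPM at 4 weeks. These ranges overlapped too, and the log2 fold change was -0.27 ± 0.16 (SE; edgeR adjusted p 0.291). Epha7 and Epha5, receptors best known from the brain, gave log2 fold changes of 0.73 (edgeR adjusted p 0.174) and 0.023 (edgeR adjusted p 0.983).

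Per kb of exon, 4 receptors made up the Eph receptor message of these cells. Ephb4 stood at 8.27 ± 1.97 and 9.52 ± 1.45 CPM per kb (SD, n = 4) at P5 and 4 weeks, and Epha1 at 8.31 ± 2.68 and 4.51 ± 1.01. Ephb6 followed at 4.25 ± 0.712 and 5.12 ± 0.610 and Ephb2 at 4.06 ± 0.659 and 1.21 ± 0.129 CPM per kb. Together they held 92.8% of the summed Eph receptor level at P5 and 94.2% at 4 weeks. At P5 the neighbours Ephb4 and Epha1, and Ephb6 and Ephb2, lay within 1 SD of each other, and at 4 weeks Ephb6 and Epha1 did so, with Ephb2 the lowest of the 4. The summed level was 26.8 ± 3.57 CPM per kb at P5 and 21.6 ± 1.76 at 4 weeks (SD, n = 4), and the lowest P5 library, at 23.4, was above the highest 4-week library, at 23.1. The median tested gene had 11.4 and 11.6 CPM per kb.

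**Figure D2:**
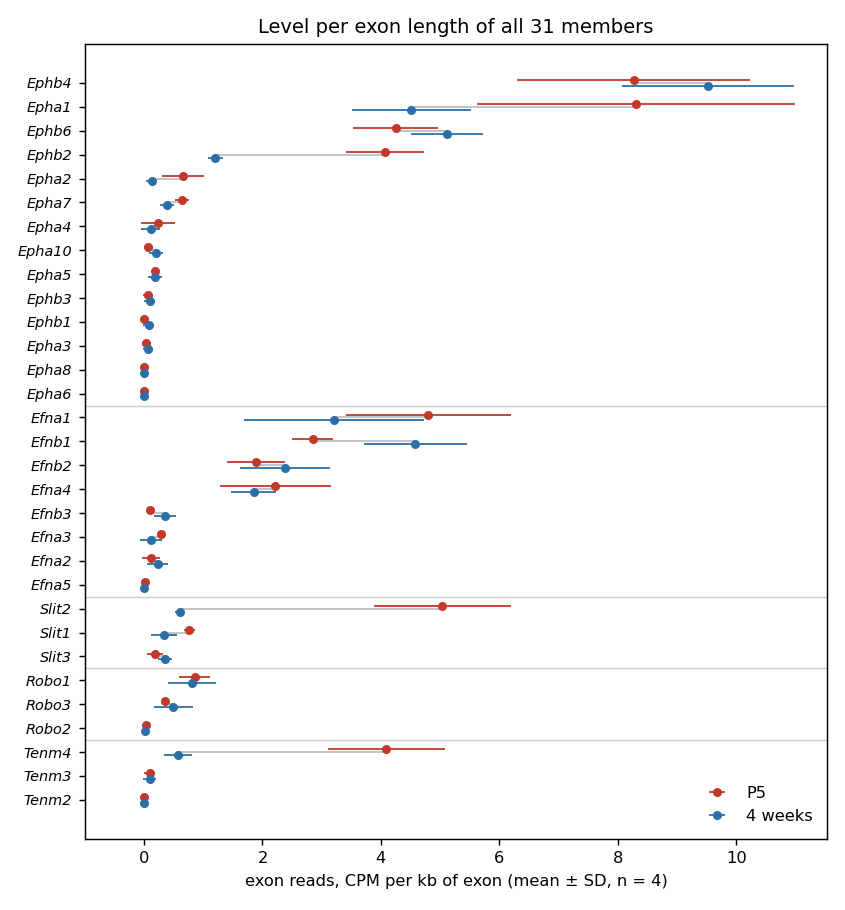
Exon reads in CPM per kb of exon for all 31 members, grouped by family (points: means of 4 libraries; bars: SD; red: P5; blue: 4 weeks). Ephb4, Epha1, Ephb6 and Ephb2 stand above the other Eph receptors, and Slit2 and Tenm4 show the largest gaps between ages in their families.

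The ephrins, the ligands of these receptors, differed little in total between the ages: 12.3 ± 1.76 CPM per kb at P5 and 12.7 ± 2.67 at 4 weeks (SD, n = 4). Efnb1, which lies on the X chromosome at chrX:99136061-99149022, was the 1 ephrin that passed the test. It had 9.68, 7.77, 9.21 and 10.4 CPM at P5 and 15.5, 14.0, 18.5 and 11.8 CPM at 4 weeks. Every 4-week library was above every P5 library, with replicate 4 at 4 weeks the nearest. The log2 fold change was -0.68 ± 0.20 (SE) with an edgeR adjusted p of 0.0311. The call ended in 5 of the 8 fits that left out 1 library, those without P5 replicate 1, 2 or 3 or without 4-week replicate 1 or 3, with edgeR adjusted p of 0.051 to 0.101. P5 replicates 1 and 3, the libraries with 2 and 0 Y-linked reads, had levels inside the range of the other P5 libraries, and without both the log2 fold change was -0.71 (edgeR adjusted p 0.12).

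Efnb2, the arterial ephrin, had 13.1, 13.7, 12.8 and 7.19 CPM at P5 and 7.74, 16.2, 16.995 and 17.7 CPM at 4 weeks. In each age 3 libraries lay close together and 1 was lower, so the ages overlapped. The log2 fold change was -0.33 ± 0.27 (SE; edgeR adjusted p 0.456). Efna1, an A-class ligand first described as a gene that TNF induces in endothelial cells, had 6.68, 10.9, 5.66 and 8.32 CPM at P5 and 3.95, 5.34, 8.75 and 3.05 CPM at 4 weeks. The ages overlapped, and the log2 fold change was 0.59 ± 0.35 (SE; edgeR adjusted p 0.279). Efna4 gave 0.26 (edgeR adjusted p 0.707). Per kb of exon, Efna1, Efnb1, Efnb2 and Efna4 were each between 1.85 and 4.80 CPM at both ages and made up 95.8% of the ephrin level at P5 and 94.4% at 4 weeks.

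The 16 members that were not tested had from 0 to 88 exon reads in all 8 libraries together. Epha2 was the highest of them and the one with no overlap between ages, at 1.4996, 1.71, 3.23 and 4.65 CPM at P5 and 0.632, 1.03, 0.337 and 0.139 CPM at 4 weeks. Fitted with no filter on low counts, it had a log2 fold change of 2.36 ± 0.68 (SE) and an edgeR adjusted p of 0.0278. Epha4 reads came from 2 libraries of each age, with 0, 2.64, 3.56 and 0 CPM at P5 and 0, 0, 0.673 and 2.22 CPM at 4 weeks. Efnb3, a B-class ephrin, had 10 reads at P5 and 31 at 4 weeks, Epha10 had 12 and 30, and Efna3 18 and 7. Ephb3, Efna2, Epha3, Ephb1, Efna5 and Epha8 had 23 reads or fewer in total. Epha6 had no exon read in any library; 3 reads over the 4 libraries of an age, the limit that a count of 0 allows, would be 0.111 CPM at P5 and 0.119 CPM at 4 weeks, for counting error only.

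Intron reads are a second set of reads over the same genes in the same libraries. They can come from unspliced RNA, but their source here was not tested. They made up 60.1 to 68.7% of the exon and intron reads of a library. In an edgeR fit of intron reads over 13180 genes, 23 members were tested, 6 of them higher at P5, against 9.01% of all genes, and 0 lower, against 8.86%. At an unadjusted p under 0.05, 8 members were higher and 1, Ephb6, was lower. The share of all genes at that threshold was not counted, so these counts have no baseline. Scaling by DESeq2 size factors in place of TMM left the count of calls at 6. The median log2 fold change was 0.45 over these members and -0.012 over all tested genes. Slit2 again stood first: 279.9, 314, 277 and 130.5 intron CPM at P5 against 19.3, 29.3, 26.1 and 31.9 at 4 weeks. P5 replicate 4 was the lowest of its group in intron as in exon reads and still above all 4-week libraries. The log2 fold change of Slit2 intron reads was 3.23 ± 0.25 (SE), with an edgeR adjusted p of 1.16e-05.

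Tenm4 introns had 64.1, 45.4, 69.2 and 68.2 CPM at P5 and 18.6, 9.45, 15.6 and 14.7 CPM at 4 weeks, without overlap. The log2 fold change was 2.08 ± 0.21 (SE; edgeR adjusted p 6.56e-05). Ephb2 introns had 73.9, 98.5, 82.1 and 115 CPM at P5 and 44.7, 20.4, 29.0 and 31.7 CPM at 4 weeks, also without overlap, with a log2 fold change of 1.55 ± 0.22 (SE; edgeR adjusted p 0.000582). Epha1 introns gave 1.31 ± 0.22 (SE; edgeR adjusted p 0.00179), but 17.6% of the gene's span lies under an antisense gene, 2010310C07Rik, and 11.7% under Zyx, whose parts were not tested. Over Tenm4, the widest of several opposite-strand genes, Gm15414, covers 4.38% of the span, and their part was not tested either. Slit2, Tenm4, Ephb2 and Epha1 were called in both kinds of read, of 13 members tested in both. The share of all genes called in both was not counted, and both kinds of read come from the same libraries.

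Epha7 and Epha4 were called in intron reads alone. Epha7 introns had 26.5, 16.9, 31.5 and 20.4 CPM at P5 and 12.1, 7.75, 9.61 and 4.48 CPM at 4 weeks. The ages did not overlap, and the log2 fold change was 1.49 ± 0.29 (SE; edgeR adjusted p 0.00454), beside 0.73 in exon reads. Epha4 introns had 4.72, 7.99, 9.57 and 3.03 CPM at P5 and 2.30, 1.86, 3.56 and 2.78 CPM at 4 weeks. Here P5 replicate 4 lay within the 4-week range, and the log2 fold change was 1.27 ± 0.38 (SE; edgeR adjusted p 0.0366). Efnb1 introns did not pass the filter: they had 3, 0, 1 and 4 reads at P5 and 9, 35, 12 and 24 at 4 weeks, again without overlap.

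Reads that span an exon-exon junction come from spliced RNA, and their fit was added after the data had been seen. Of 8 members with enough such reads, 3 were higher at P5, against 4.35% of 9191 tested genes, and 0 were lower, against 462 of the 9191. At an unadjusted p under 0.05, 2 were lower, Efnb1 and Ephb6, and the share of all genes at that threshold was not counted here either. Slit2 had 112, 98, 74 and 61 junction reads at P5 and 4, 11, 8 and 21 at 4 weeks, a log2 fold change of 2.88 ± 0.30 (SE; edgeR adjusted p 4.75e-07). Tenm4 had 79, 99, 57 and 47 against 10, 5, 2 and 17, a log2 fold change of 2.97 ± 0.35 (SE; edgeR adjusted p 3.39e-06). Ephb2 had 84, 67, 69 and 65 against 15, 19, 18 and 27, a log2 fold change of 1.76 ± 0.22 (SE; edgeR adjusted p 5.17e-06). In all 3 genes the P5 and 4-week libraries did not overlap. Efnb1 had a junction log2 fold change of -0.93 (edgeR adjusted p 0.129).

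**Figure D3:**
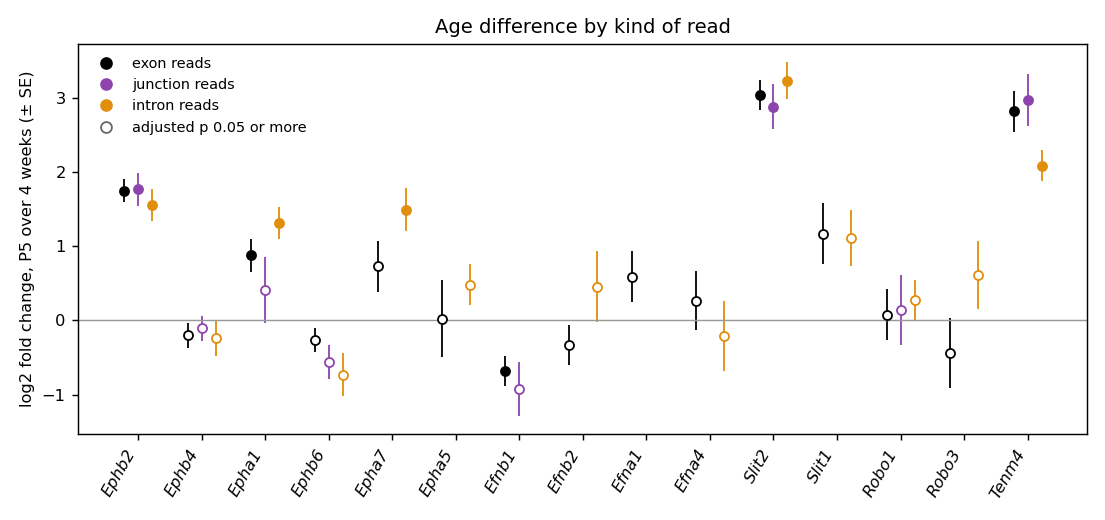
Log2 fold change, P5 over 4 weeks (± SE), of the 15 members tested in exon reads (black), with junction reads (purple) and intron reads (orange) where these were tested; open points have an adjusted p of 0.05 or more. Slit2, Tenm4 and Ephb2 are called in all 3 kinds of read, Epha1 in exon and intron reads, and Epha7 in intron reads alone.

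The density of reads over intron length was set beside that of 488 genes with at least 50 kb of intron and no exon read in any library. Their median was 0.779 intron CPM per 100 kb at P5 and 0.599 at 4 weeks, with 95th percentiles of 2.73 and 2.21. Slit2 had 79.6 and 8.48 CPM per 100 kb, Ephb2 52.0 and 17.7, and Epha1 389 and 156, all above those percentiles at both ages. Tenm4 had 8.52 at P5 and 2.01 at 4 weeks, where it was under the 95th percentile. Epha7 was above at both ages, at 16.3 and 5.798, and Epha4, at 4.47 and 1.85, at P5 only. Epha6, Epha3, Ephb1 and Tenm2 lay between 0.320 and 0.816 CPM per 100 kb at both ages, near or under the median of the genes without exon reads.

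**Figure D4:**
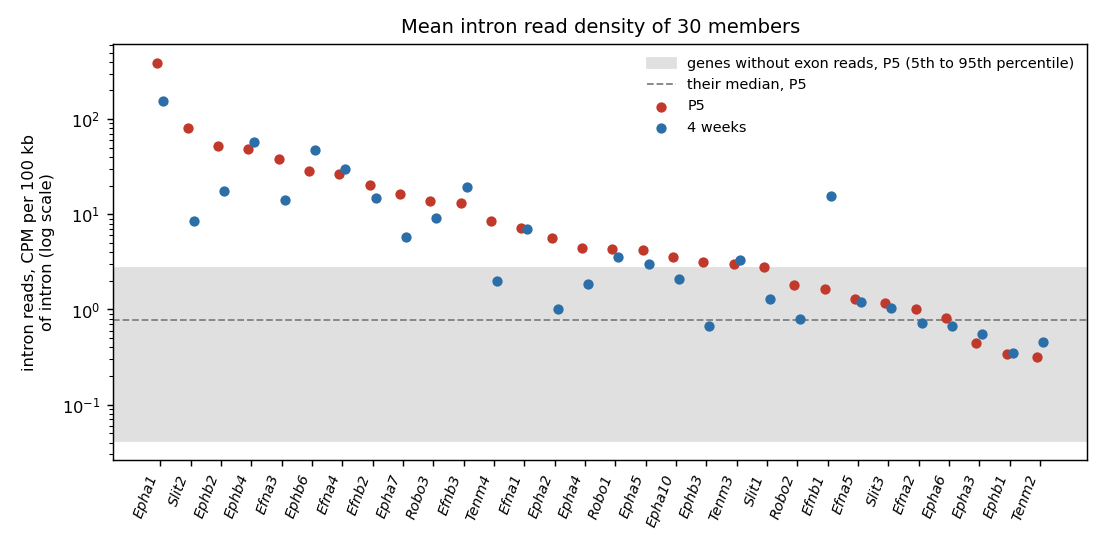
Intron reads in CPM per 100 kb of intron (log scale, means of 4 libraries; red: P5; blue: 4 weeks) of the 30 members with a value above 0 at both ages; the grey band and dashed line give the 5th to 95th percentile and the median, at P5, of 488 genes without exon reads. Epha1, Slit2 and Ephb2 lie far above the band, and Epha6, Epha3, Ephb1 and Tenm2 lie within it.

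Some endothelial markers were higher at P5 as well. Of the 11 tested, 4 were called higher, against 7.99% of all tested genes: Cdh5, Ptprb, Tek and Robo4; the first 3 were chosen for naming after their values were seen. Cdh5, the gene of the junction protein VE-cadherin, had 42, 125, 68 and 50 exon reads at P5 and 0, 0, 1 and 0 at 4 weeks. Ptprb, an endothelial phosphatase, had 52.9, 36.4, 25.7 and 24.96 CPM at P5 and 4.42, 3.79, 4.88 and 4.29 CPM at 4 weeks. P5 replicate 2 was the highest library for Cdh5, Tenm4, Ephb2 and Epha1, while P5 replicate 1 was the highest for Slit2 and Ptprb. The other 7 were not called, with Tie1 at a log2 fold change of -0.19 (edgeR adjusted p 0.143) and Vwf, named after its value was seen, at -0.16 (edgeR adjusted p 0.396). Without P5 replicate 2, the library with high Csf1r, Slit2, Tenm4, Ephb2 and Epha1 were still called, with log2 fold changes of 2.97, 2.69, 1.64 and 0.63 (largest edgeR adjusted p 0.0422, for Epha1). Without replicate 4 at 4 weeks, the library with high Cxcl12, they were called too, at 3.12, 3.04, 1.83 and 0.98 (largest edgeR adjusted p 0.0221, for Epha1). The part of other cells in the values of Slit2, Tenm4, Ephb2 and Epha1 was not tested.

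The partners of Eph receptors and ephrins were 33 genes, among them those of adaptors, exchange factors, GTPase-activating proteins, kinases, phosphatases and a protease. Of 30 tested, 5 were higher at P5, against 7.99% of all tested genes, and 2 lower, against 8.55%. Their median log2 fold change was 0.052, and the ages did not overlap in 8, against 21.2% of all tested genes. Grb10, an adaptor of tyrosine kinase receptors, was at 443 ± 27.4 and 305 ± 29.1 CPM (SD, n = 4; log2 fold change 0.54, edgeR adjusted p 0.000628), and Cbl, a ubiquitin ligase of such receptors, at 609.7 ± 47.4 and 415 ± 26.1 CPM (log2 fold change 0.56, edgeR adjusted p 0.000352). Vav3, an exchange factor of small GTPases, was higher at P5, at 134 ± 6.60 CPM against 88.7 ± 3.58 at 4 weeks (log2 fold change 0.60, edgeR adjusted p 0.000142). Lyn, a Src family kinase, gave a log2 fold change of 0.33 (edgeR adjusted p 0.0124). Sipa1l1, a GTPase-activating protein for Rap that binds Eph receptors, was lower at P5. It had 116 ± 17.2 and 227 ± 39.4 CPM (log2 fold change -0.97, edgeR adjusted p 0.000172). Ptpn11, the phosphatase SHP2, was lower too (log2 fold change -0.25, edgeR adjusted p 0.0272). The other called gene, named after its value was seen, was Adam10, a protease that sheds ephrins, with a log2 fold change of 0.30 (edgeR adjusted p 0.0131).

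The 36 partners of Slits and Robos went both ways. Of 29 tested, 4 were higher at P5, against 7.99% of all tested genes, and 8 lower, against 8.55%. Their median log2 fold change was -0.045, and the ages did not overlap in 12, against 21.2% of all tested genes. Robo4 had 197.5, 248, 155 and 158 CPM at P5 and 109, 92.2, 140.3 and 122 CPM at 4 weeks. The ages did not overlap, and the log2 fold change was 0.71 ± 0.15 (SE; edgeR adjusted p 0.00626). Per kb of exon, Robo4 stood at 47.3 ± 10.9 and 28.9 ± 5.06 CPM (SD, n = 4), far above the 0.853 and 0.807 CPM per kb of Robo1, so it carried most of the Robo message. Srgap1, a GTPase-activating protein that binds Robo tails, was higher at P5 with a log2 fold change of 1.35 (edgeR adjusted p 0.0137), as were Sdc1, the heparan sulfate proteoglycan syndecan-1, at 1.52 (edgeR adjusted p 0.0016), and Evl, an Ena/VASP actin regulator, at 1.30 (edgeR adjusted p 5.74e-05).

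Among the lower Slit and Robo partners, Enah, the other Ena/VASP gene on the list to be called, averaged 7.02 ± 2.31 CPM in the neonate and 62.6 ± 12.7 CPM at 4 weeks (SD, n = 4; log2 fold change -3.15, edgeR adjusted p 6.83e-07). Carriers of heparan sulfate, which binds Slits, were lower too: Sdc4, syndecan-4, at 3.04 ± 0.647 and 12.9 ± 2.32 CPM (log2 fold change -2.08, edgeR adjusted p 0.000111), and Gpc1, glypican-1, at 8.12 ± 1.16 and 18.5 ± 1.66 CPM (log2 fold change -1.18, edgeR adjusted p 0.000529). Unc5a, a netrin receptor, had a log2 fold change of -1.81 (edgeR adjusted p 0.000474). The 3 syndecans that were called therefore did not share a direction: Sdc1 was higher at P5, and Sdc4 and Sdc2, the latter named after its value was seen, were lower.

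Of 9 teneurin partners, 5 were tested, 0 were higher and 1 was lower at P5 by edgeR, at an adjusted and at an unadjusted p under 0.05 alike, and DESeq2 called 1. Of all tested genes, edgeR called 7.99% higher and 8.55% lower at an adjusted p under 0.05. The median log2 fold change of the 5 partners was 0.029. Adgrl1, listed as Lphn1, the gene of latrophilin-1, had 138 and 117 CPM at P5 and 4 weeks and was not called. Its log2 fold change was 0.24 (edgeR adjusted p 0.416), and it was named after its value was seen. The lower gene was Adgrl2, listed as Lphn2, which encodes the teneurin-binding receptor latrophilin-2. It had 55.6, 72.6, 74.2 and 61.2 CPM at P5 and 84.1, 89.6, 101 and 112 CPM at 4 weeks. The ages did not overlap, and the log2 fold change was -0.56 ± 0.12 (SE; edgeR adjusted p 0.00596), opposite in sign to that of Tenm4.

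**Figure D5:**
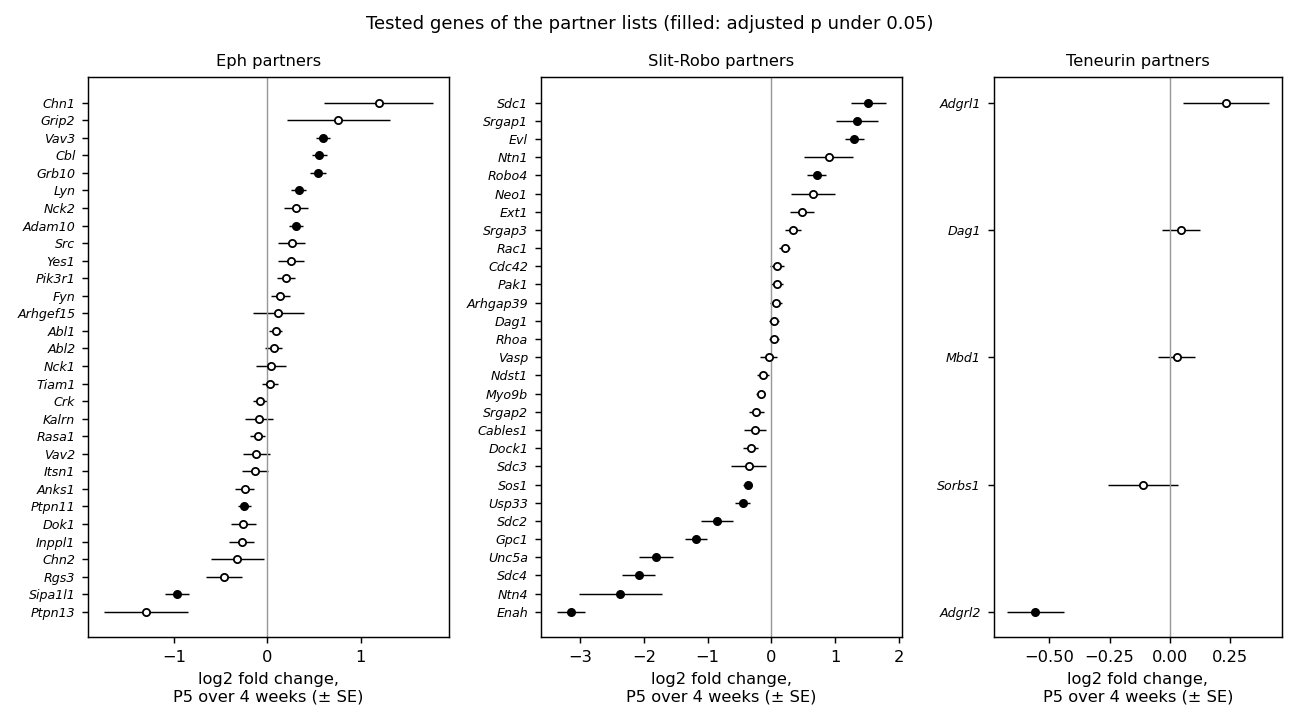
Log2 fold change, P5 over 4 weeks (± SE), of the tested genes of the 3 partner lists, each panel with its own axis; filled points have an adjusted p under 0.05. Eph partners cluster near 0, Slit and Robo partners spread from -3.15 (Enah) to 1.52 (Sdc1), and the filled point among teneurin partners is Adgrl2 at -0.56.

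The authors' deposited table also holds a test of the ages, called EDGE in the file header. In the authors' deposited table, where a negative fold means higher at P5, Slit2 had -8.24 (false discovery rate 4.96e-37), Tenm4 -7.06 (2.47e-19) and Ephb2 -3.36 (2.36e-21). The authors' deposited table also had Epha2 at -5.18 (0.000726), Epha1 at -1.83 (0.012), Slit1 at -2.25 (0.0278) and Efnb1 at 1.6 (0.0232).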

How the data were processed

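Messenger RNA of sorted HSCs was sequenced on a NextSeq from Nextera XT libraries, which do not mark strand, per the labels' protocols and the series text. The authors deposited raw read counts per gene over exons, introns and exon junctions, from trimmed reads per the file headers. The submitters' processing notes name the build mm10, and the aligner, counter and gene models were not given in the sources used here. In addition, the authors deposited their own test of the ages, with a p-value, a corrected p-value and a signed fold, called EDGE per the file headers. Reads carry no molecular identifiers, so floors cover counting error only.

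Of 48835 rows, 23457 had an exon model, and genes listed on several contigs were summed (22050 genes). In 1 file, 24 names turned into dates were restored from the row order. Total exon reads were tested in edgeR 4.0.16 (R 4.3.3; TMM, filterByExpr, quasi-likelihood, age alone, 8 libraries), with Benjamini-Hochberg adjustment over all 12235 genes kept and a threshold of 0.05. Standard errors are approximate, being the fold change over the root of F. CPM divides exon reads by the effective library size. Intron and junction reads were fitted alike. The script was tested on simulated data. RefSeq on GRCm38.p6 gave positions and promoters, and GENCODE vM21 the overlaps. Figures used matplotlib 3.10.9 in Python 3.11.15 with pandas 2.3.3.

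Groups and replicate numbers came from the labels. Same-numbered libraries of the 2 ages did not deviate together (correlations of -0.236 to -0.0309). The labels do not say that a number marks a shared animal, litter or day, and 4 libraries an age are too few to decide it. No pair of libraries of an age agreed within sampling noise (chi-square per degree of freedom 4.38 to 14.4). Every member was accounted for, with full values for called members and the 2 most abundant tested uncalled members of a family; of each partner list, up to 4 called genes a direction with the smallest p; of each marker list, the most abundant gene and those at 0. The leading gene of 1 marker list is not reported here. The members and lists were chosen with earlier results of these data known. Alternatives were other scaling, filters and tests (DESeq2 1.42.0, limma-voom from limma 3.58.1), a replicate block, each library left out, other kinds of read, unsummed copies and Y-linked reads (present above 100) as a covariate or to choose libraries. Junction reads were added after seeing the data.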

Additional observations from a re-analysis of the deposited data

Results flagged for a closer look

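In groups of 4 libraries, 46 groups of member values were examined for 1 library far from the other 3 by Dixon's criterion at its 95% critical value, and 3 stood out, where chance gives about 1 in 20. For Efnb2, P5 replicate 4 was the lowest at 7.19 CPM, with the others at 12.8 to 13.7. For Efnb2 at 4 weeks, replicate 1 was the lowest at 7.74 CPM, with the others at 16.2 to 17.7. For Epha1 intron reads at 4 weeks, replicate 4 was the highest at 25.8 CPM, with the others at 14.8 to 15.9.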

How the results depend on the processing

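Slit2, Tenm4 and Ephb2 kept their direction and their call in all 21 alternatives each, with log2 fold changes of 2.88 to 3.23, 2.08 to 3.04 and 1.55 to 1.86. The count of members lower at P5, 1 in the test reported, was 0 with the replicate block, in intron reads, in junction reads, with Y-linked reads as a covariate and in libraries with such reads only; without single libraries it was 0 or 1, and the count higher was 4 to 6. With the replicate number as a block, members higher were 3, and Epha1 (edgeR adjusted p 0.0654) and Efnb1 (edgeR adjusted p 0.0836) lost their calls; partners of Eph receptors called fell from 7 to 4 and all genes higher from 977 to 577. All genes higher and lower, 977 and 1046, became 628 and 608 with the Y covariate, 619 and 638 in libraries with Y-linked reads, and 400 and 462 in junction reads; without single libraries they ranged over 702 to 985 and 795 to 1069. Without single libraries, called partners were 6 to 7 (Eph), 9 to 13 (Slit and Robo) and 1 to 2 (teneurin), and intron calls 6 to 8. Slit1 was called by DESeq2 (adjusted p 0.0358) and limma-voom (adjusted p 0.035). Members not called changed sign as follows: Efna4 to -0.21 in intron reads; Efnb2 to 0.074 in exon plus intron and 0.45 in intron reads; Robo3 to 0.072 and 0.61 in the same reads and 0.086 without a library; Epha5 to -0.28, -0.033, -0.014 and -0.0096, and Robo1 to -0.14, -0.13 and -0.055, without single libraries. Over all fits without a library, Epha5 ranged from -0.28 to 0.51, Robo1 from -0.14 to 0.44 and Robo3 from -0.73 to 0.086. The cause of these changes was not tested. The 16 members not tested had at most 88 reads in all, which limits what could be detected in them.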
